A study of Mus musculus with 16 samples.

Results

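Histone genes were examined in mouse high-grade glioma and control brain on Illumina bead arrays. All genes were taken whose updated symbol in the array's annotation begins with 1 of a set of linker, core or variant histone names. These were H1f, H2ac, H2bc, H2az, H3c, H3f and H4c, and the older Hist1h to Hist4h and H2af. A histone gene whose updated symbol begins otherwise, such as Cenpa, was not taken, so the variant genes here are not the full class. Of 63 such genes with 91 probes, 47 genes with 64 probes were detected at p under 0.05 on at least 3 of the 16 arrays, among 11755 genes tested. The 47 comprise 14 H2A, 9 H2B, 7 H3, 10 H4 and 2 H1 genes and 5 variant genes. Another 16 genes did not reach that level of detection. Of these, H2ac8 was detected on 2 arrays and H1f3, H2ac6, H3c3 and H4c2 on 1 array each, and 11 were detected on no array (H1f1, H1f4, H1f6, H1f7, H1f8, H2bc1, H2bc3, H2bc8, H2bc18, H3c8 and H4c14). Of the 47, 35 lie on chromosome 13 and 8 on chromosome 3, with 2 on chromosome 11 and 1 each on chromosomes 1 and 6 (GRCm38.p6).

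Core histones H2A, H2B, H3 and H4 form the protein spool around which DNA is wound, and H1 binds the DNA between spools. Their replication-dependent genes lie in clusters, are transcribed mainly in S phase to package newly made DNA, and give messages that end in a stem-loop in place of a poly(A) tail, with some polyadenylated forms in cells that have left the cycle. Variant genes such as H3f3a, H3f3b, H2az1 and H2az2 are transcribed outside S phase too and give polyadenylated messages, and their proteins mark active or regulatory chromatin. In adult brain most neurons have left the cell cycle, while glial progenitors can still divide.

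The 8 tumours came from a mouse model with a tamoxifen-inducible Cre, and were taken once the mice showed neurological signs. They are labelled as independent tumours, and here they are numbered 1 to 8 in the order of the letters in their titles. Control mice gave 5 dorsal and 3 ventral pieces of brain, labelled as biological replicates. The series title speaks of a knockout of tumour suppressors. The study counts 10 tumours, of which 8 were analysed here, and the genes deleted, the strain, age and sex, the region of each tumour and whether control mice carried the Cre or received the inducer are not given in the sources used here. RNA was total RNA from whole tissue, so fewer cells of a type and less RNA per cell cannot be told apart.

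The arrays detected 38.79% to 45.12% of 45281 probes each, with median intensities of 125.70 to 141.73, and no pair of arrays was identical. The 3 chips held unequal shares of the groups: tumours 6, 7 and 8, dorsal control 1 and ventral control 1 shared chip 1, tumours 1 and 2 and dorsal controls 2, 3 and 4 shared chip 2, and tumours 3, 4 and 5, dorsal control 5 and ventral controls 2 and 3 shared chip 3. Dorsal controls 4 and 5 stood apart from the other dorsal pieces in 7 striatal genes such as Drd1 and Penk, with mean levels of 10.53 and 11.35, against 6.23 to 6.37 in dorsal controls 1 to 3. Without these 2 arrays the counts of histone genes given below for the 4 contrasts were again 25, 29, 23 and 1, and those of each class relative to the mean of both regions were the same. The 1 gene that passed between regions was then H4c12 and not H3f3b. Histone genes of one class have similar coding sequences, so a probe can also bind the messages of related genes, and probe sequences were not used here. The labels name only the manufacturer's standard labelling, so how far it reaches messages without a poly(A) tail was not tested. All levels below are log2 signal after background correction and quantile normalization, and for the 8 tumours the lowest, median and highest are given in that order.

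The promoters of H2ac11, H2ac12, H2ac15 and H2ac7 are shown because these H2A genes differed strongly between tumours and control brain and each faces an H2B gene on the other strand that did not pass the test, and the promoters of H2ac18, an H2A gene that did not pass the test, and of H4c9 are shown for contrast. Sequences are from RefSeq on GRCm38.p6 and run from 250 bases before to 50 bases after the annotated start, and capitals mark the letters TATAAA, the box CCAAT or its reverse ATTGG, and the octamer ATTTGCAT or its reverse ATGCAAAT. The 6 sequences, each read along its gene's own strand, are as follows.
H2ac11 (chr13:22042900-22043199, minus strand): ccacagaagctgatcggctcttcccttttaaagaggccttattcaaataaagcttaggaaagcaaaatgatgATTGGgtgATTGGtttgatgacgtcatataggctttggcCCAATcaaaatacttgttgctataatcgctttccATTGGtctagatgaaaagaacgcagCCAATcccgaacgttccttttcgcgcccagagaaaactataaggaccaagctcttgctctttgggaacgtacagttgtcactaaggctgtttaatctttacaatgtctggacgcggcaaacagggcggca
H2ac12 (chr13:22035594-22035893, minus strand): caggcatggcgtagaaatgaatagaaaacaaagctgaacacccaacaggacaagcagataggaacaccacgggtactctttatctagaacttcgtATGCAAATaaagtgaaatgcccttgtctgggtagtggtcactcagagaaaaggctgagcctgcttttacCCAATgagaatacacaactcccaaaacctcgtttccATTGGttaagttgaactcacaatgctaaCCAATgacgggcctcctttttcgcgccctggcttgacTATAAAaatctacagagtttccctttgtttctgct
H2ac15 (chr13:21753863-21754162, minus strand): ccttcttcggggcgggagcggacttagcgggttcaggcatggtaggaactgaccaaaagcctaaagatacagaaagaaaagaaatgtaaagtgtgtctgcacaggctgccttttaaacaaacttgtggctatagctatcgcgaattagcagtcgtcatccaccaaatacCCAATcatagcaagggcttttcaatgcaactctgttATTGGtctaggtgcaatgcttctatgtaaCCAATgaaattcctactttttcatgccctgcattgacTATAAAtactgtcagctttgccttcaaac
H2ac7 (chr13:23574131-23574430, plus strand): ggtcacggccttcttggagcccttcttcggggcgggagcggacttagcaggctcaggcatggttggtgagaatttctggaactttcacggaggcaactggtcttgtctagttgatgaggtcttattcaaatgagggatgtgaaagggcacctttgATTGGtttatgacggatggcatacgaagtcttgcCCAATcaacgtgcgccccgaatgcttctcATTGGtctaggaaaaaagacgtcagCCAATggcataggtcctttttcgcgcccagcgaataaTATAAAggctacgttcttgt
H2ac18 (chr3:96245247-96245546, plus strand): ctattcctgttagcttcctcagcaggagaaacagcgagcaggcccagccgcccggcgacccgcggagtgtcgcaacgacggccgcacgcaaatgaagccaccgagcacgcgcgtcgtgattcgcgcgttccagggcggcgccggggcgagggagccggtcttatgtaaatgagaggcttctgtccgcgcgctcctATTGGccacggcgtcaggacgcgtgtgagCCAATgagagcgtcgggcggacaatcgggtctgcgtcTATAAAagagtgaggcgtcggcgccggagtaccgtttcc
H4c9 (chr13:22041313-22041612, minus strand): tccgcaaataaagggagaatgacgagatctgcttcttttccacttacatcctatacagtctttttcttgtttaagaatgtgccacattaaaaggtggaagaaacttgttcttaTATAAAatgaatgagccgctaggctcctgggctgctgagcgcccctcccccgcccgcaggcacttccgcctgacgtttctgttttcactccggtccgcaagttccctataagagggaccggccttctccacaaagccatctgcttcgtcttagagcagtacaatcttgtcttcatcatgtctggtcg
The H2ac11, H2ac12, H2ac15 and H2ac7 windows each hold the start of an H2B gene on the other strand, 248, 177, 163 and 173 bases away. With both strands searched, CCAAT was present in the promoters of 14 of 14 H2A, 7 of 7 H2B, 5 of 5 H3, 3 of 10 H4 and 4 of 5 variant genes, against 37.4% of 32851 mouse promoters of the same length. TATAAA was present in 9 of 14 H2A, 3 of 7 H2B, 2 of 5 H3, 8 of 10 H4 and 1 of 5 variant promoters, against 13.6% of all. The octamer was present in 4 of 14 H2A and 2 of 7 H2B promoters and in 0 of 10 H4 promoters, against 1.74% of all. The 10 H2A genes that passed the test and the 4 that did not each had CCAAT throughout, so these letters did not separate them. The marked TATAAA begins 15, 21, 30 and 11 bases after the annotated start in H2ac12, H2ac15, H2ac7 and H2ac18, and at -137 relative to it in H4c9. A match is a description of the sequence only, and 43 of the 47 genes had a promoter in the table.

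H2A, H3 and variant genes made up 21 of the 25 histone genes that rose in tumours. With limma and Benjamini-Hochberg adjustment over all 23131 probes kept, 25 of 47 genes rose in tumours relative to the mean of both control regions at adjusted p under 0.05 and 0 fell (0 also at an unadjusted p under 0.05), where 27.2% of all genes tested rose and 26.6% fell. The median difference over the 47 genes was 0.89, against 0.005 over all genes. All 7 H3 genes rose (median 1.40), as did 10 of 14 H2A genes (median 3.14), 4 of 5 variant genes (median 1.61), 1 of 2 H1 genes, 1 of 9 H2B genes (median 0.78) and 2 of 10 H4 genes (median 0.35). Among the genes that rose, H2ac21 and H3c1 met the detection rule only through the tumours. They were detected on 1 and 0 of 5 dorsal arrays, and each on 1 of 3 ventral arrays. All 8 tumours lay above every control array for 18 of the 47 genes, against 10.6% of all genes, and these were 10 H2A, 4 H3 and 4 variant genes.

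**Figure D1:**
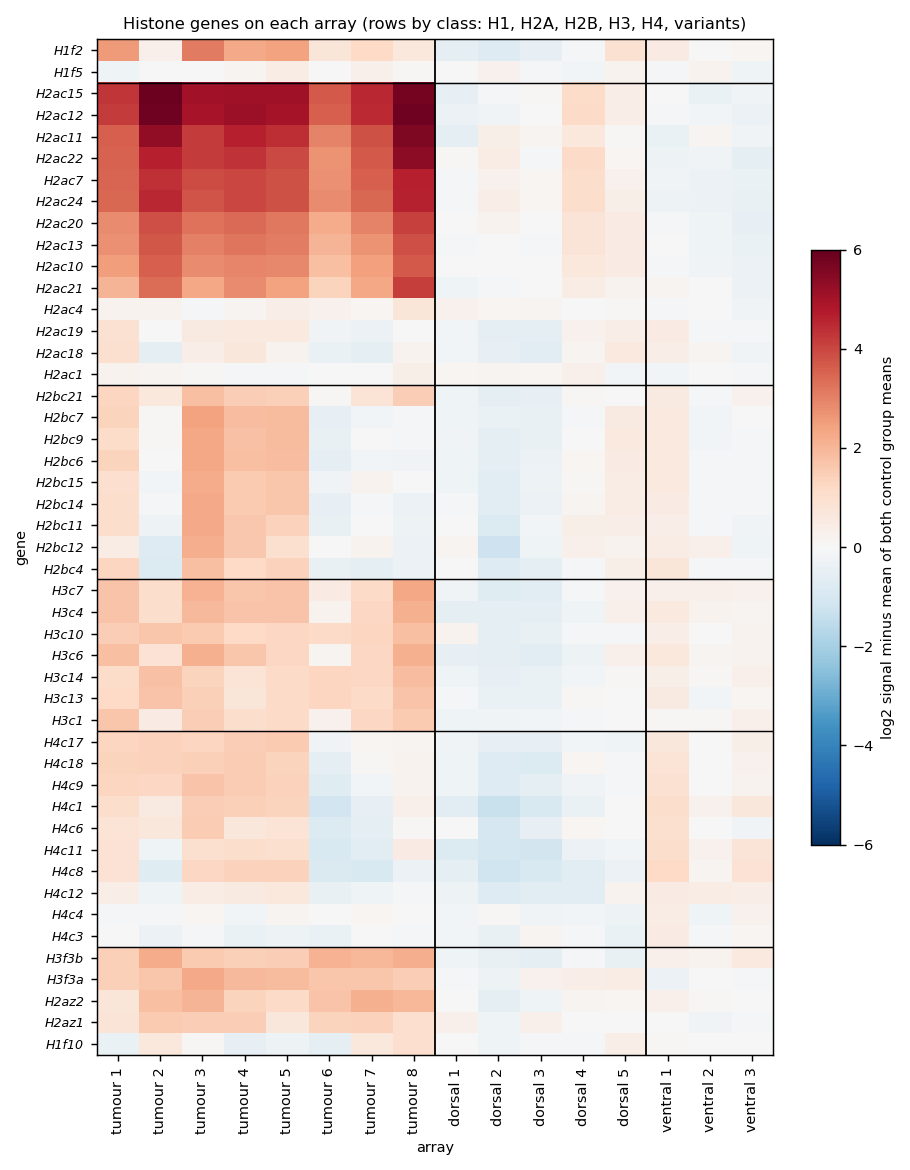
Log2 signal of the 47 histone genes (rows, by class) on the 16 arrays (columns: 8 tumours, 5 dorsal controls, 3 ventral controls), each gene relative to the mean of both control group means, so that 0 is white. The 10 red H2A rows are high in all 8 tumours, the H3 and variant rows are paler, and the H2B and H4 rows are red mainly in tumours 1, 3, 4 and 5.

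Relative to dorsal controls, 29 of 47 genes rose and 0 fell, where 25.9% of all genes rose and 24.1% fell. Relative to ventral controls 23 rose and 0 fell, where 19.3% of all genes rose and 21% fell. At an unadjusted p under 0.05, 0 were lower than in dorsal controls and 1 was lower than in ventral controls. The 10 H2A, 7 H3 and 4 variant genes, the H2B gene H2bc21 and the H1 gene H1f2 passed against both regions. Against ventral controls the call of H1f2 (adjusted p 0.0433) ended in 13 of 28 alternatives, among them the fits without any 1 of tumours 1, 3, 4 and 5, dorsal controls 1, 3 and 4 or the ventral controls. That of H2bc21 ended in 3 (without a detection filter, and without ventral control 2 or 3), that of H3c6 in the same 3 and that of H3c4 without ventral control 2 or 3. H3c14 lost its call against each region with the median of its probes, and H3c1 lost its ventral call with the block on description numbers. Of 10 H4 genes 6 rose relative to dorsal controls and 0 relative to ventral controls. Both comparisons use the same 8 tumours, and their difference is the ventral minus dorsal contrast, in which 0 of 10 H4 genes passed by limma and 4 had an unadjusted p under 0.05.

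**Figure D2:**
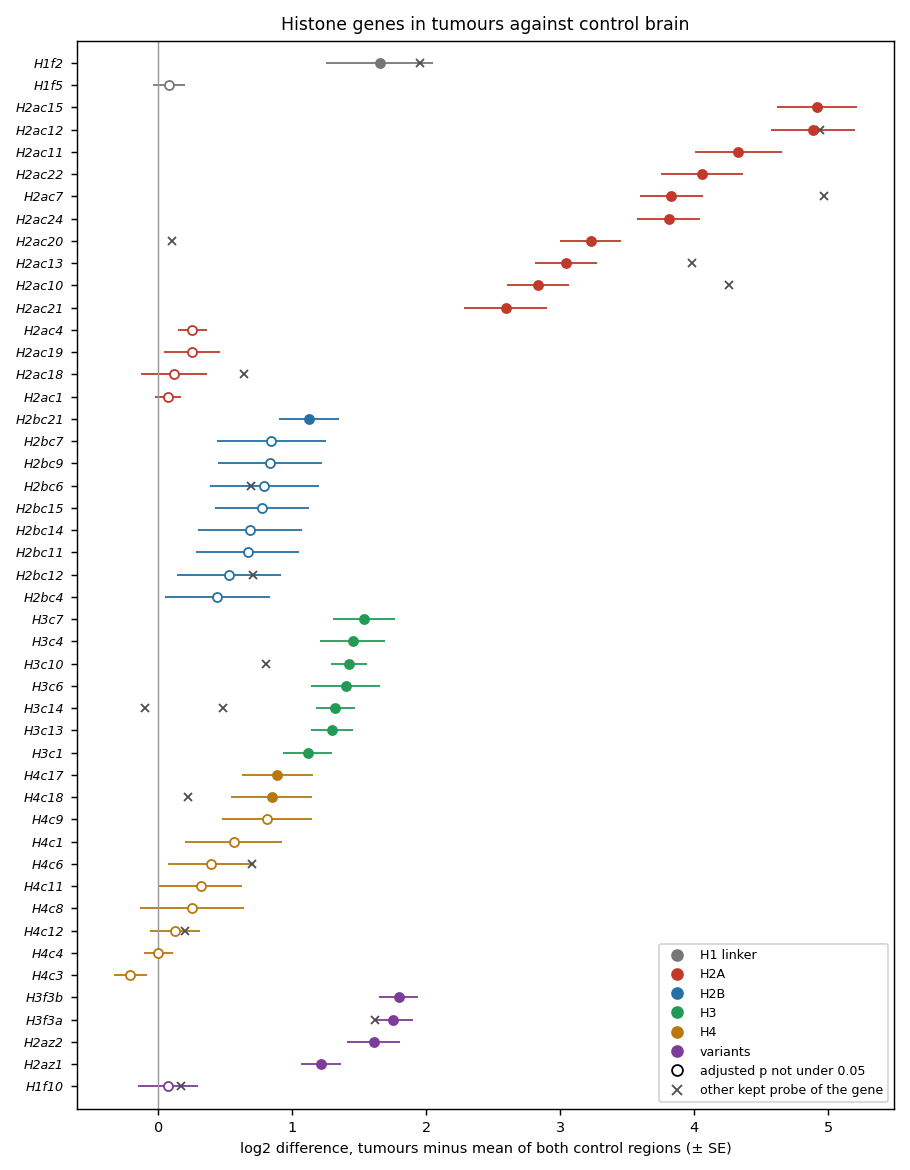
Log2 difference (x axis, tumours minus the mean of both control regions, ± SE) for the 47 histone genes (rows, coloured by class), with filled points where the adjusted p was under 0.05 and crosses for other kept probes of the same gene. The filled H2A points run from 2.59 to 4.92 in 10 genes, above every point of the other classes, while 4 H2A genes lie near 0.

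Cell type markers were followed beside the histone genes, set against the mean of both regions, where 27.2% of all genes rose and 26.6% fell. In tumours 6 of 6 neuron markers and 4 of 5 markers of myelinating oligodendrocytes tested fell. Rises were seen in 6 of 6 markers of oligodendrocyte progenitors and 5 of 7 of microglia and macrophages. Of these 5, Itgam was detected on 3 of 8 tumour arrays and 0 control arrays. Against dorsal and ventral controls, 3 of 7 microglia and macrophage markers rose in each case, as did 6 of 6 progenitor markers. Neuron markers fell in 6 of 6 and 5 of 6, and myelinating oligodendrocyte markers in 3 of 5 in each case. The mean level of the progenitor markers ran from 8.53 to 11.73 over the tumours, against 7.18 to 7.74 in dorsal and 7.99 to 8.11 in ventral controls, and that of the neuron markers from 7.15 to 10.62 in tumours, against 11.43 to 12.30 in dorsal and 10.70 to 10.92 in ventral controls. For microglia and macrophages it was 6.79 to 9.89 in tumours, against 6.84 to 7.34 in dorsal and 6.75 to 6.97 in ventral controls. Of 7 astrocyte markers 1 rose and 4 fell, of 6 endothelial markers 0 rose and 1 fell (0 and 2 at an unadjusted p under 0.05), and of 6 lymphocyte markers 1 was detected and did not pass. The part that these shifts in cell types have in the histone differences was not tested.

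H2A genes encode the histone that pairs with H2B in the nucleosome core, and the 10 members with the largest differences over all 47 were all of this class. H2ac15 (older symbol Hist1h2ak) had 10.84, 12.20 and 13.02 in tumours, against 6.66, 7.05, 7.20, 8.26 and 7.53 in dorsal and 7.16, 6.73 and 6.94 in ventral controls. H2ac12 (Hist1h2ah) had 10.64, 12.00 and 12.89 in tumours, against 6.67, 6.80, 6.99, 8.20 and 7.45 in dorsal and 6.96, 6.87 and 6.71 in ventral controls. Every tumour exceeded every control for both genes, and tumour 6 was the lowest tumour and tumours 2 and 8 the highest. For H2ac15 the difference was 4.92 ± 0.30 (SE, adjusted p 3.39e-09), a fold of 30.2. For H2ac12 it was 4.89 ± 0.31 (SE, adjusted p 5.61e-09), and its second probe gave 4.94.

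H2ac11 (Hist1h2ag) was at 7.90, 9.21 and 10.50 in tumours, against 4.35, 5.23, 5.06, 5.55 and 4.99 in dorsal and 4.50, 5.08 and 4.71 in ventral controls. This probe was close to background in control brain, since it was detected on 3 of 5 dorsal and 1 of 3 ventral arrays, and on 8 of 8 tumour arrays. Its difference was 4.33 ± 0.33 (SE, adjusted p 2.99e-08). H2ac22 (Hist1h2an) was at 9.36, 10.74 and 12.05 in tumours, against 6.74, 7.11, 6.60, 7.80 and 6.80 in dorsal and 6.34, 6.48 and 6.15 in ventral controls, a difference of 4.06 ± 0.31 (SE, adjusted p 2.98e-08). Tumour 8 was the highest in both, and the tumour and control ranges were more than 1 log2 unit apart.

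H2ac7 (Hist1h2ad), H2ac24 (Hist1h2ap), H2ac13 (Hist1h2ai) and H2ac10 (Hist1h2af) had high signal in control brain as well. H2ac7 had 12.21, 13.31 and 14.12 in tumours, against 9.33, 9.69, 9.57, 10.49 and 9.73 in dorsal and 9.25, 9.11 and 9.06 in ventral controls. H2ac24 had 12.63, 13.58 and 14.39 in tumours, against 9.72, 10.20, 9.90, 10.82 and 10.12 in dorsal and 9.49, 9.41 and 9.34 in ventral controls. The lowest tumour was above the highest control in each, and dorsal control 4 was the highest control. H2ac7 differed by 3.83 ± 0.23 (SE, adjusted p 3.55e-09) and H2ac24 by 3.81 ± 0.23 (SE, adjusted p 3.56e-09). H2ac13 had 12.40, 13.44 and 14.25 in tumours, against 10.29, 10.38, 10.33, 11.18 and 10.86 in dorsal and 10.35, 10.13 and 9.99 in ventral controls, a difference of 3.04 ± 0.23 (SE, adjusted p 3.82e-08). H2ac10 had 12.28, 13.34 and 14.20 in tumours, against 10.52, 10.46, 10.49, 11.14 and 10.97 in dorsal and 10.42, 10.26 and 10.13 in ventral controls, a difference of 2.84 ± 0.23 (SE, adjusted p 7.74e-08). In both genes every control lay below every tumour. For H2ac7, H2ac13 and H2ac10 the dimmer second probe gave the larger difference, at 4.97, 3.99 and 4.26.

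H2ac20 (Hist2h2ac) and H2ac21 (Hist2h2ab) lie in the chromosome 3 cluster. H2ac20 had 12.33, 13.34 and 14.21 in tumours, against 10.09, 10.31, 10.14, 10.89 and 10.61 in dorsal and 10.01, 9.85 and 9.64 in ventral controls, a difference of 3.23 ± 0.23 (SE, adjusted p 1.53e-08). Its second probe was much dimmer and did not separate the groups, with 5.82, 6.48 and 6.83 in tumours, against 6.13, 5.64, 6.07, 6.63 and 6.58 in dorsal and 6.65, 6.17 and 6.08 in ventral controls and a difference of 0.10 ± 0.19 (SE, adjusted p 0.684). H2ac21 had 6.12, 7.17 and 8.97 in tumours, against 4.55, 4.72, 4.81, 5.23 and 5.00 in dorsal and 4.97, 4.83 and 4.46 in ventral controls, a difference of 2.59 ± 0.31 (SE, adjusted p 3.96e-06). It was detected on 8 of 8 tumour arrays, 1 of 5 dorsal arrays and 1 of 3 ventral arrays, so its control level lies near background.

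The other 4 H2A genes did not pass. H2ac18 and H2ac19 (Hist2h2aa1 and Hist2h2aa2), which are neighbours on chromosome 3, gave 0.12 (adjusted p 0.723) and 0.25 (adjusted p 0.341). H2ac1, which encodes the testis form of H2A, and H2ac4 were detected on 3 and 8 of the 16 arrays and gave 0.07 and 0.25. For H2ac18 the main probe had 8.59, 9.37 and 10.12 in tumours, against 8.97, 8.67, 8.54, 9.32 and 9.74 in dorsal and 9.58, 9.32 and 8.93 in ventral controls, with the groups overlapping. Its second, dimmer probe had 6.55, 7.31 and 8.06 in tumours, against 6.76, 6.43, 6.30, 6.69 and 7.17 in dorsal and 6.85, 6.84 and 6.53 in ventral controls, and passed with a difference of 0.64 ± 0.19 (SE, adjusted p 0.0117). H2ac18 and H2ac19 were highest in tumours 1 and 4, whereas the 10 genes above were highest in tumours 2 and 8.

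H2B genes encode the partner of H2A, and their differences were smaller and more uneven between tumours. All 9 were above 0, from 0.44 for H2bc4 to 1.13 for H2bc21, but only H2bc21 (Hist2h2be) passed, where 27.2% of all genes rose. H2bc21 had 5.71, 7.03 and 7.45 in tumours, against 5.40, 5.12, 5.16, 5.72 and 5.70 in dorsal and 6.20, 5.58 and 5.91 in ventral controls, a difference of 1.13 ± 0.22 (SE, adjusted p 0.000546). In 7 of 8 tumours it exceeded every control, and tumour 6 lay inside the control range. H2bc12 (Hist1h2bk) had 7.24, 8.34 and 10.22 in tumours, against 8.17, 6.77, 7.75, 8.31 and 8.24 in dorsal and 8.46, 8.34 and 7.79 in ventral controls, a difference of 0.53 ± 0.39 (SE, adjusted p 0.27), and the tumours ranged from within the control range to above it. Tumour 3 was the highest tumour in 9 of 9 H2B genes, and tumours 1, 3, 4 and 5 were the 4 highest in 8 of 9.

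The H2B difference varied by chip. As tumours minus the mean of both regions, the median over the 9 genes was -0.41 on the arrays of chip 1 and 1.63 on those of chip 3, and within chip 2, which held no ventral control, it was 0.77 against dorsal controls. The H2A median was 3.05 within chip 1 and 3.13 within chip 3, and 3.00 against dorsal controls within chip 2. With chip as a block, 5 of 9 H2B genes rose (H2bc6, H2bc7, H2bc9, H2bc15 and H2bc21), and leaving out tumour 6 gave the same 5 names. Without tumour 2 or tumour 8, 2 of 9 rose. Tumours 3, 4 and 5 were all on chip 3 and tumours 6, 7 and 8 all on chip 1, so a chip effect and a difference between tumours cannot be told apart.

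**Figure D3:**
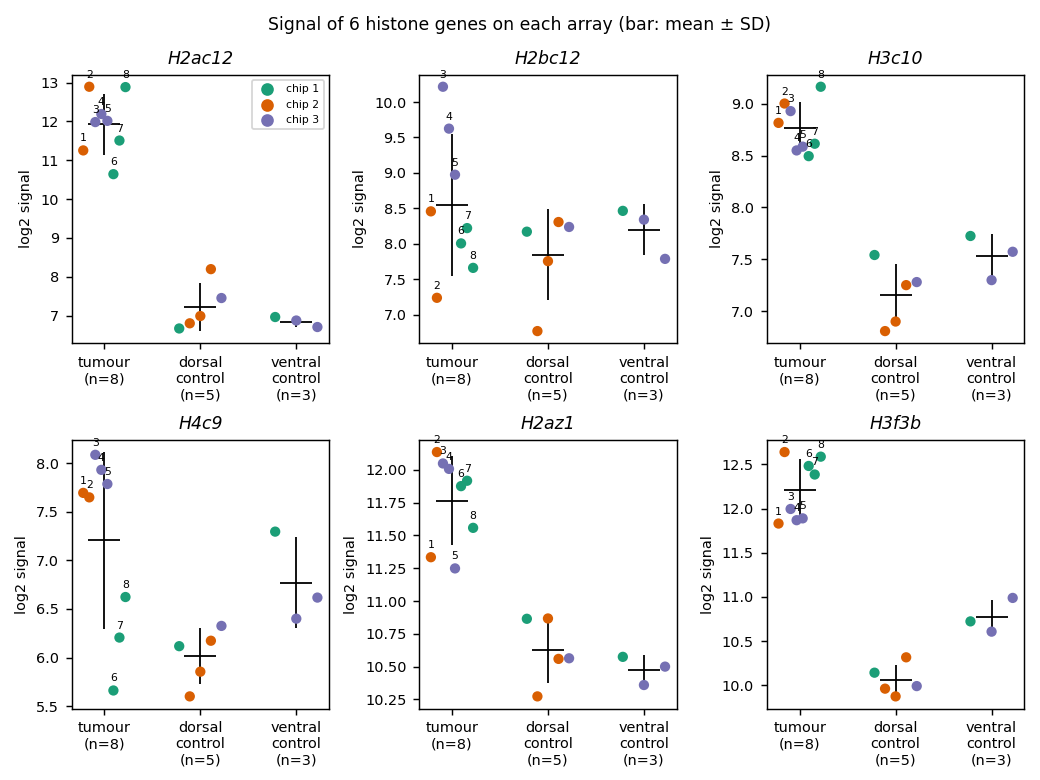
Log2 signal (y axis) of H2ac12, H2bc12, H3c10, H4c9, H2az1 and H3f3b on each array, by group (8 tumours with their numbers, 5 dorsal controls, 3 ventral controls) and coloured by chip, with bars for mean ± SD. Tumours lie above all controls for H2ac12, H3c10, H2az1 and H3f3b. For H4c9 tumours 6, 7 and 8 lie among the controls, and for H2bc12 tumours 1, 2, 6, 7 and 8 do.

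In 4 pairs of H2A and H2B genes with a shared promoter region, the H2A gene differed more between tumours and controls than its neighbour. Among members whose strand is known, 4 H2A genes have an H2B gene on the other strand with at most 500 bases between them, all on chromosome 13: H2ac11 (22042478 to 22042949) beside H2bc11, H2ac12 (22035122 to 22035643) beside H2bc12, H2ac15 (21753377 to 21753912) beside H2bc15 and H2ac7 (23574381 to 23574915) beside H2bc7. On chromosome 3, H2ac20 (96220413 to 96220880) lies beside H2bc21 (96221072 to 96223738), and both rose by their main probes. The strand of H2bc21 was not available, so these neighbours are not among the 4 pairs. The 4 pairs were chosen by position, but after the class differences had been seen, so the values are a description with no test. The level of a probe cannot be set against that of another probe, so only the change of the H2A minus H2B difference between groups is given. For H2ac12 and H2bc12 this difference was 3.37 ± 1.36 in tumours and -0.90 ± 0.61 in controls (SD, n = 8 each), a change of 4.27. For H2ac15 and H2bc15 it was 3.88 ± 1.18 in tumours and -0.18 ± 0.54 in controls (SD, n = 8 each), a change of 4.06. For H2ac11 and H2bc11 it was -0.80 ± 1.41 in tumours and -4.42 ± 0.60 in controls (SD, n = 8 each), a change of 3.62, and for H2ac7 and H2bc7 it was 2.96 ± 1.20 in tumours and 0.09 ± 0.64 in controls (SD, n = 8 each), a change of 2.88.

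In each pair the 8 tumours lay above all 8 controls in this difference. Set against all 8 controls pooled, and not the mean of both regions used for single genes, the H2A difference exceeded its neighbour's by 2.88 to 4.27 (log2). By chip the values differed, and in all 4 pairs they were highest within chip 1 and lowest within chip 3. These values rest on unlike controls: 1 dorsal and 1 ventral on chip 1, only dorsal on chip 2, and 1 dorsal and 2 ventral on chip 3. For H2ac11 over H2bc11 they were 5.04, 3.50 and 2.68 within chips 1, 2 and 3. For H2ac7 over H2bc7 they were 4.25, 2.45 and 2.15. For H2ac12 over H2bc12 they were 5.22, 4.51 and 3.57, and for H2ac15 over H2bc15 they were 5.06, 4.01 and 3.44.

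**Figure D4:**
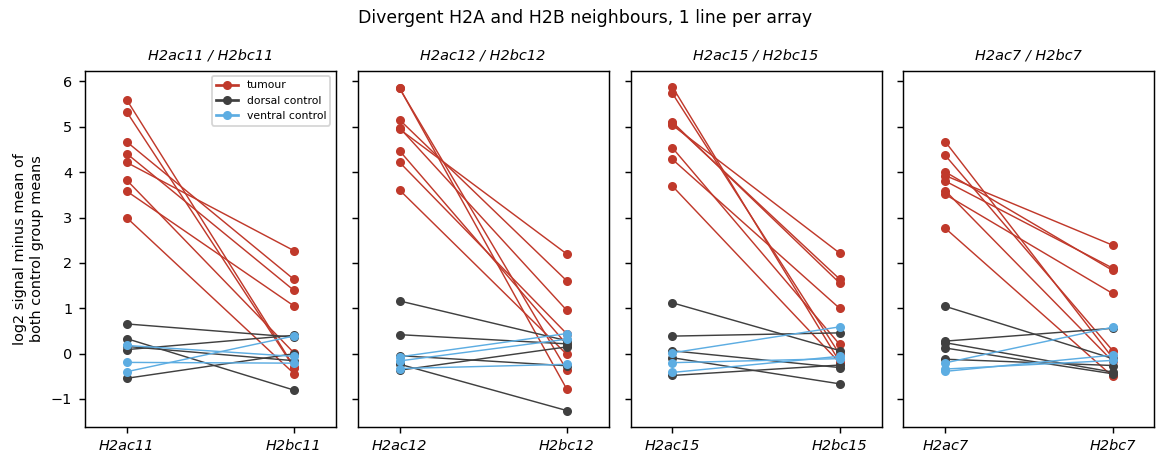
Log2 signal relative to the mean of both control group means (y axis) for the 4 pairs of divergent H2A and H2B neighbours, with 1 line per array (red tumours, grey dorsal controls, blue ventral controls). Every tumour line falls steeply between the H2A and the H2B gene, and control lines stay near 0.

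H3 genes encode the histone whose tail carries much of the regulatory marking of chromatin. By the main probe of each gene, the difference ran from 1.12 for H3c1 to 1.53 for H3c7. The other kept probes of H3c10 and H3c14 gave smaller values, given below. H3c10 (Hist1h3h) had 8.49, 8.71 and 9.16 in tumours, against 7.54, 6.81, 6.90, 7.25 and 7.28 in dorsal and 7.73, 7.30 and 7.57 in ventral controls, a difference of 1.42 ± 0.14 (SE, adjusted p 3.83e-07). H3c13 (Hist2h3b), of the chromosome 3 cluster, had 8.76, 9.29 and 9.77 in tumours, against 7.94, 7.63, 7.66, 8.12 and 8.09 in dorsal and 8.57, 7.88 and 8.16 in ventral controls, a difference of 1.30 ± 0.16 (SE, adjusted p 4.18e-06). Tumours and controls did not overlap in either gene. The second probe of H3c10, detected on 6 of 8 tumour arrays and on no control array, gave 0.81 ± 0.17 (SE, adjusted p 0.00105). H3c7, H3c4 and H3c6 rose by 1.53, 1.45 and 1.40 on the log2 scale, with tumour 6 the lowest tumour in each. H3c1 was detected on 8 of 8 tumour arrays and on 0 of 5 dorsal arrays, where it was at least 1.71-fold higher in tumours (adjusted p 0.000109), with measured means of 5.70 in tumours and 4.45 in dorsal controls. The H3 median was 1.15 within chip 1 and 1.33 within chip 3.

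H3c14 (Hist2h3c1) had 3 kept probes that did not behave alike. The brightest had 8.83, 9.25 and 9.82 in tumours, against 7.75, 7.47, 7.61, 7.84 and 8.04 in dorsal and 8.35, 8.07 and 8.29 in ventral controls, a difference of 1.32 ± 0.14 (SE, adjusted p 1.54e-06). The next had 4.91, 5.54 and 6.89 in tumours, against 5.66, 4.84, 5.50, 5.12 and 5.47 in dorsal and 5.67, 4.85 and 5.18 in ventral controls, with overlapping groups and a difference of 0.49 ± 0.27 (SE, adjusted p 0.146). The dimmest had 4.44, 4.66 and 4.93 in tumours, against 5.02, 4.55, 4.71, 4.76 and 5.03 in dorsal and 4.54, 5.17 and 4.67 in ventral controls and a difference of -0.10 ± 0.12 (SE, adjusted p 0.527), and it was detected on 2 of 8 tumour arrays.

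H4 genes encode the partner of H3, and more of them passed relative to dorsal than to ventral controls. Relative to the mean of both regions only H4c17 and H4c18 rose, by 0.89 and 0.85 on the log2 scale (adjusted p 0.011 and 0.03). Relative to dorsal controls H4c1, H4c9, H4c11, H4c12, H4c17 and H4c18 rose, by 0.57 to 1.23. The call of H4c12 ended in 11 of 28 alternatives, that of H4c11 in 4 and that of H4c1 in 1, without dorsal control 2. Relative to ventral controls the median of the 10 genes was -0.13, with 4 genes above 0 and none that passed at adjusted p under 0.05 with limma. At an unadjusted p under 0.05, 0 were higher and 1 was lower. H4c9 (Hist1h4i) had 5.66, 7.67 and 8.09 in tumours, against 6.12, 5.60, 5.85, 6.17 and 6.33 in dorsal and 7.30, 6.40 and 6.62 in ventral controls. The difference from dorsal controls was 1.19 ± 0.37 (SE, adjusted p 0.0152). From ventral controls it was 0.43 ± 0.44 (SE, adjusted p 0.478). Tumours 1 to 5 lay above every control for H4c9, while tumours 6, 7 and 8 lay within the control range. H4c17 was detected on 0 of 5 dorsal arrays and 8 of 8 tumour arrays, which makes it at least 1.96-fold higher in tumours than in dorsal controls (adjusted p 0.00327), with measured means of 5.90 in tumours and 4.68 in dorsal controls.

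For 2 H4 genes the kept probes disagreed relative to the mean of both regions. H4c18 (Hist1h4n) had 5.20, 7.09 and 7.25 in tumours, against 5.50, 4.96, 4.92, 5.84 and 5.64 in dorsal and 6.58, 5.75 and 6.01 in ventral controls, a difference of 0.85 ± 0.31 (SE, adjusted p 0.03). Its second probe had 4.63, 5.61 and 6.23 in tumours, against 4.90, 4.76, 4.50, 5.14 and 4.78 in dorsal and 6.02, 5.46 and 5.73 in ventral controls, a difference of 0.22 ± 0.19 (SE, adjusted p 0.347). By its main probe, H4c6 (Hist1h4f) had 4.76, 6.24 and 7.08 in tumours, against 5.61, 4.56, 5.10, 5.69 and 5.56 in dorsal and 6.54, 5.59 and 5.37 in ventral controls, a difference of 0.39 ± 0.32 (SE, adjusted p 0.323). Its second probe, detected on 6 of 8 tumour arrays and on no control array, had 4.55, 5.37 and 5.66 in tumours, against 4.38, 4.51, 4.44, 4.56 and 4.42 in dorsal and 4.64, 4.38 and 4.80 in ventral controls, a difference of 0.70 ± 0.17 (SE, adjusted p 0.00218), which as a bound against the dorsal controls is at least 1.24-fold. H4c3 and H4c4 were close to background and gave -0.21 and -0.001.

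Tumour 6 was the lowest tumour in 7 of 10 H4 genes, and tumours 6, 7 and 8 were all below tumours 1 to 5 in 5 of 10. Set against the mean of both regions, the H4 median in tumours was -0.42 on the arrays of chip 1 and 1.11 on those of chip 3, and 1.17 against dorsal controls within chip 2. The limit on chip and tumour given for H2B holds here too. With tumour 6 left out, 4 of 10 H4 genes rose relative to the mean of both regions (H4c1, H4c9, H4c17 and H4c18). Without any 1 of tumours 1 to 5, dorsal controls 2 and 3 or ventral controls 2 and 3, the call of H4c18 ended and 1 of 10 rose.

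Between the control regions, the H4 genes had a median, ventral minus dorsal, of 0.75, and all 10 genes were above 0, but none of the 10 passed by its main probe. H4c8, H4c11 and H4c1 gave the largest values, at 1.48, 1.39 and 1.33 (adjusted p 0.134, 0.0664 and 0.151). The second probe of H4c18 passed, with 0.92 ± 0.27 (SE, adjusted p 0.0481). Within chip 1 the H4 median, ventral minus dorsal, was 1.00 and within chip 3 it was 0.36, each resting on 1 dorsal array. Of the 47 histone genes H3f3b alone passed by its main probe and was higher in ventral tissue, where 5.04% of all genes were higher and 4.2% lower. Without dorsal controls 4 and 5, H4c12 alone passed. H2A genes had a median of -0.39 and 2 of 14 above 0.

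Of the linker histones, H1f2 (Hist1h1c), which encodes H1.2, had 9.70, 11.10 and 12.47 in tumours, against 8.77, 8.60, 8.88, 9.32 and 10.29 in dorsal and 9.87, 9.38 and 9.47 in ventral controls, a difference of 1.65 ± 0.40 (SE, adjusted p 0.00271). Tumours 1, 3, 4, 5 and 7 lay above every control, and tumours 2, 6 and 8 overlapped the controls, with dorsal control 5 the highest control. Its second probe gave 1.95 ± 0.52 (SE, adjusted p 0.00492). H1f5 (Hist1h1b) was dim on all arrays, at 4.91, 5.22 and 5.60 in tumours, against 5.22, 5.43, 5.12, 5.00 and 5.40 in dorsal and 5.08, 5.38 and 4.92 in ventral controls, and gave 0.08 ± 0.12 (SE, adjusted p 0.589).

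Variant histones, which do not depend on replication, rose in tumours in 4 of 5 genes, by 1.21 to 1.79. H3f3b, 1 of 2 genes for the replacement histone H3.3, had 11.83, 12.19 and 12.64 in tumours, against 10.14, 9.96, 9.88, 10.32 and 9.99 in dorsal and 10.72, 10.61 and 10.99 in ventral controls. H3f3a, the other, had 11.34, 11.58 and 12.15 in tumours, against 9.82, 9.58, 10.15, 10.31 and 10.36 in dorsal and 9.55, 9.89 and 9.84 in ventral controls. No tumour overlapped a control in either gene, and within the controls H3f3b was higher in all 3 ventral than in all 5 dorsal pieces. Between tumours and controls H3f3b differed by 1.79 ± 0.15 (SE, adjusted p 6.98e-08), and by 0.72 ± 0.21 (SE, adjusted p 0.046) between ventral and dorsal tissue. With chip as a block, or without dorsal controls 4 and 5, that regional difference no longer passed. It was lost in 14 of 28 alternatives, and 0 of 47 genes passed without any 1 of dorsal controls 1 to 3 or of the 3 ventral controls, where 7 of 47 had an unadjusted p under 0.05 on all arrays. H3f3a differed by 1.76 ± 0.15 (SE, adjusted p 7.91e-08), and its second, dim probe gave 1.62 ± 0.37 (SE, adjusted p 0.00173).

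H2az1 and H2az2 encode the 2 forms of H2A.Z, a variant found at promoters. H2az1 had 11.25, 11.90 and 12.14 in tumours, against 10.87, 10.27, 10.87, 10.56 and 10.56 in dorsal and 10.57, 10.36 and 10.50 in ventral controls, a difference of 1.21 ± 0.15 (SE, adjusted p 5.07e-06). H2az2 had 8.37, 9.38 and 9.78 in tumours, against 7.61, 7.04, 7.38, 7.79 and 7.78 in dorsal and 7.94, 7.70 and 7.66 in ventral controls, a difference of 1.61 ± 0.20 (SE, adjusted p 5.27e-06). Tumours and controls did not overlap for either gene, and tumour 1 or 5 was the lowest tumour, not tumour 6. H1f10, a linker histone variant, had 7.02, 7.49 and 8.63 in tumours, against 7.59, 7.35, 7.46, 7.55 and 7.99 in dorsal and 7.66, 7.59 and 7.59 in ventral controls, a difference of 0.07 ± 0.23 (SE, adjusted p 0.812), and its second probe gave 0.17 ± 0.22 (SE, adjusted p 0.554). Its tumours lay on both sides of the controls, with tumours 8, 2 and 7 the highest. The variant median was 1.81 within chip 1 and 1.43 within chip 3.

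Probes of one gene could be compared in 16 of the 47 genes. Relative to the mean of both regions, all kept probes had the same sign and the same call in 11 of them. In H2ac18, H2ac20, H3c14, H4c6 and H4c18, given above, they did not. Against ventral controls H1f2 passed by its main probe (limma adjusted p 0.0433) and not by its second (0.0687). Against dorsal controls H4c12 passed by its main probe (limma adjusted p 0.0362) and not by its second (0.0676). The remaining 31 genes had 1 kept probe, so their values rest on that probe alone.

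The order of the tumours differed between classes. In 10 of 10 H2A genes that rose, tumours 2 and 8 were the 2 highest and tumour 6 the lowest. An S phase score, the mean log2 signal of 31 replication genes such as Mcm2 and Tyms, was highest in tumours 2 and 8 at 8.02 and 7.77 and lowest in tumours 6 and 7 at 6.47 and 6.57, with the others from 7.03 to 7.54. The slope of each gene on this score over the 8 tumours was fitted with limma across all probes. None of the 47 slopes passed at adjusted p under 0.05, where 7 of 11755 genes (0.0595%) did, and 10 had an unadjusted p under 0.05, where 15% of all genes did, 8.08% with a positive slope. These 10 were the 10 H2A genes that rose in tumours, and over the 14 H2A genes the median slope was 0.99 log2 units per unit of the score, against 0.0085 over all genes.

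For H2ac24 the slope was 0.99 ± 0.18 (SE, limma adjusted p 0.102), with Pearson's r = 0.93 (exact permutation p 0.00146) and Spearman's rho = 0.90 (exact permutation p 0.00456) over 8 tumours, and r = 0.85 without tumours 2 and 6, whose scores are farthest from the median. For H2bc7 the slope was 0.36 ± 0.72 (limma adjusted p 0.888) with r = 0.18 (exact permutation p 0.661) and rho = 0.31 (exact permutation p 0.462), and r = 0.16 without those tumours. For H3f3b r was 0.15 (exact permutation p 0.705) and rho 0.29 (exact permutation p 0.501), and r was 0.10 without them. The relation was computed for 47 genes, and probes of the 10 H2A genes can bind each other's messages, so they do not count as 10 separate results. With chip as a block the median slope was 1.13 for H2A and -0.34 for H2B, and leaving out 1 tumour at a time it was 0.84 to 1.14 for H2A and -0.41 to 0.86 for H2B.

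**Figure D5:**
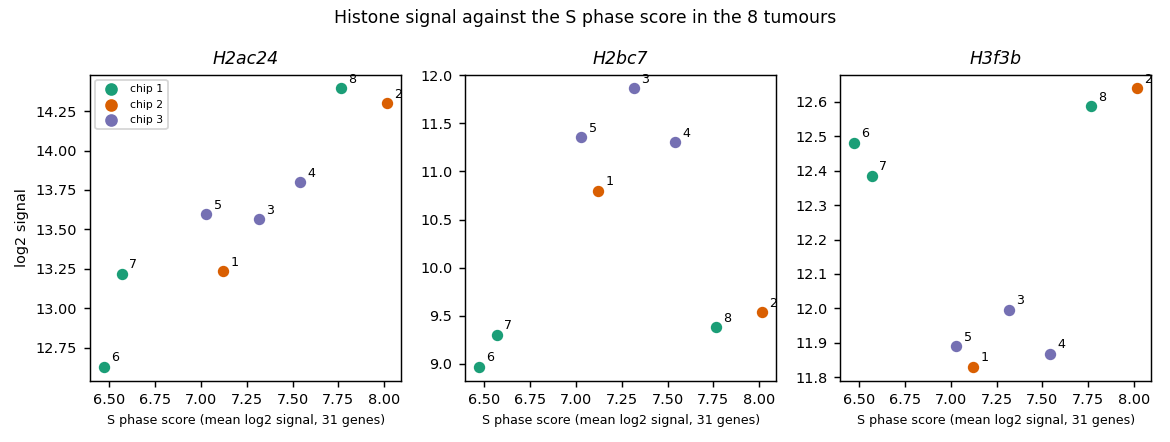
Log2 signal of H2ac24, H2bc7 and H3f3b (y axes) against the S phase score (x axis, mean log2 signal of 31 replication genes) in the 8 tumours, numbered and coloured by chip. H2ac24 climbs with the score, whereas H2bc7 is high in tumours 1, 3, 4 and 5 at middle scores and H3f3b is high in tumours 2, 6, 7 and 8 at both ends.

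Genes that act with histones were followed from 3 lists. Of 31 S phase genes tested, 25 rose and 1 fell in tumours relative to the mean of both regions (median 1.42). Of all genes, 27.2% rose and 26.6% fell (median 0.005). Cdk2, a cell cycle kinase, rose by 3.55 ± 0.20 (SE), and Dut, which removes dUTP, fell by 1.06 ± 0.18, both on the log2 scale (each adjusted p in limma at most 0.000165). Uhrf1, which carries DNA methylation through replication, had a mean of 8.39 in tumours. It was detected on 1 of 5 dorsal arrays (mean 4.67) and on 0 of 3 ventral arrays (mean 4.73). Uhrf1 was thus at least 11.6-fold higher in tumours than in ventral controls (limma adjusted p 5.3e-05). Mcm6, a subunit of the replicative helicase, had a mean of 7.98 in tumours, and was detected on 0 of 5 dorsal arrays (mean 4.62) and on 1 of 3 ventral arrays (mean 4.81), so it was at least 8.27-fold higher in tumours than in dorsal controls (limma adjusted p 2.75e-09). A bound sets the tumour mean against the lowest detected signal of each array of the undetected group, or the probe's own signal where that is higher. The S phase score was 6.47 to 8.02 in tumours, against 5.58 to 5.81 in dorsal and 5.69 to 5.74 in ventral controls.

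Of 28 genes tested from the list of histone chaperones and assembly factors, 15 rose and 1 fell (median 0.65). Among all genes 27.2% rose and 26.6% fell. The 15 include Cenpa, which is itself the histone H3 variant of centromeres and rose by 4.61 ± 0.28 (SE, adjusted p 2.88e-09). Chaf1a and Chaf1b are subunits of the factor that places H3 and H4 on new DNA. Chaf1a rose by 2.10 ± 0.24 (SE, adjusted p 2.85e-06). Chaf1b had a mean of 8.03 in tumours. It was detected on 1 of 5 dorsal arrays (mean 4.65) and on 0 of 3 ventral arrays (mean 4.58). Chaf1b was thus at least 9.02-fold higher in tumours than in ventral controls (limma adjusted p 1.4e-05). Znhit1, of the complex that deposits H2A.Z, fell by 0.68 ± 0.22 on the log2 scale (adjusted p 0.0165).

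Of 16 genes for the synthesis and processing of histone messages, 8 were detected well enough to test, and 0 rose and 1 fell (median 0.03), with 1 each way at an unadjusted p under 0.05. Here too 27.2% of all genes rose and 26.6% fell at adjusted p under 0.05. Sympk, a scaffold of the processing complex, fell by 0.75 ± 0.22 on the log2 scale (SE, adjusted p 0.00944). Cstf2 and Lsm10, which also take part in processing, were at 0.38 ± 0.18 and 0.37 ± 0.21 (adjusted p 0.101 and 0.16). Slbp and Npat, the stem-loop binding protein and the activator of histone clusters, were among the 8 not tested.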

How the data were processed

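The files held, per the file headers, the scanner's bead intensity and detection p-value of 45281 probes on 16 Illumina mouse arrays, deposited without normalization. The authors also deposited log2 values of 38563 probes, including all 64 member probes kept here, whose array medians were 4.70 to 4.71 and whose normalization no header or label records. Software and annotation versions of the scanner export were not used here. The gene that drives the Cre of the model is not reported here. Probes were named through the array's platform annotation and the symbols updated through gene identifiers.

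Intensities were background-corrected from the detection p-values, raised by an offset of 16, quantile-normalized and put on the log2 scale with limma 3.58.1 in R 4.3.3. These values correlated with the authors' deposited log2 values at r of at least 0.99999 on every array, with a largest difference of 0.0868. The 23131 probes detected at p under 0.05 on at least 3 arrays were fitted with 3 group means, and p-values were adjusted by the Benjamini-Hochberg method over all of them. A gene was called by its probe with the highest mean. The number of arrays limits the precision. The scripts were tested on simulated data.

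The histone genes and gene lists were chosen with earlier results of these data known. Values by array are given for the 10 members with the largest difference that passed against both regions. Every variant member and every member that passed between regions is given in the same way. So is every member whose probes disagreed in sign or call relative to the mean of both regions. Of each list, the 3 members with the largest difference and 1 in the other direction are named, and the other genes with values were chosen after these were seen.

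Samples with the same letter in their titles did not deviate together (r of -0.0967 to 0.1196 over 11 pairs, 1 over 0.1), nor did those with the same number in their descriptions (r of -0.0576 to 0.1402 over 8 pairs, 2 over 0.1), so no fit was paired by default. Alternatives changed the background correction, scaling, detection filter, choice of probe, variance prior, chip, pairing and samples.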

Additional observations from a re-analysis of the deposited data

How the results depend on the processing

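Of 557 alternative values for counts, class counts and pairs, 503 were scored as the same as the value reported, and 54 were not. Counts had to stay within 1.5 times, and pair values within a chip within 1 SD of the tumours. Other pair values had to keep their direction and side of a permutation threshold, which is not used as a test here. Total, higher and lower counts were each included. With 0 lower, the total and higher counts are the same value, so the 503 are not separate results. For 15 named genes set against the mean of both regions, 445 of 450 alternative values kept their direction and were scored as the same. This meant the same side of the threshold or, for values within a chip, which have no p-value, a distance under 1 SD of the tumours. The other 5 are of H1f10, which had not passed: its difference was -0.0763 with a replicate block on title letters, -0.43 within chip 3 and, without 1 array at a time, ran from -0.0647 to 0.1659. The median slope of the H2B genes on the S phase score, 0.22 on all tumours, was -0.34 with chip as a block, -0.41 without tumour 6 and -0.10 without tumour 7. Calls of other genes that ended are given with each result. Relative to the mean of both regions, 4 H2B genes rose with median scaling and 5 with chip as a block, against 1. For H4 it was 1 gene, against 2, with no detection filter or with the median of a gene's probes. With chip as a block, 1 histone gene, H4c3, was lower than in ventral controls. Between regions 3 genes were higher in ventral tissue with median scaling, and 0 with no detection filter, with detection p under 0.01 or with chip as a block, against 1. With a replicate block on title letters, 38 of 47 histone genes rose, with 8 H2B and 7 H4 genes, and 7 were higher in ventral tissue. With a replicate block on description numbers, 5 H2B and 5 H4 genes rose and 5 were higher in ventral tissue. Neither numbering pairs the samples. The change of H2ac11 minus H2bc11 was 5.04 within chip 1 and 2.68 within chip 3, and that of H2ac7 minus H2bc7 was 4.25 and 2.15. The cause of these shifts was not tested.

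Leaving out 1 array at a time gave 24 to 31 genes higher in tumours than the mean of both regions, 26 to 34 than dorsal and 19 to 23 than ventral controls, and 0 to 3 between regions, with 0 lower in each. By class the counts were 10 to 11 for H2A, 1 to 5 for H2B, 7 to 7 for H3 and 1 to 4 for H4. The pair differences were 3.30 to 3.86 for H2ac11, 3.94 to 4.50 for H2ac12, 3.78 to 4.25 for H2ac15 and 2.62 to 3.08 for H2ac7. With median scaling the median of all genes, tumours minus the mean of both regions, shifted by 0.15, so the added H2B calls there come with a shift of all genes. The description-number block, the fits without dorsal controls 4 and 5, the class counts and the pair differences were chosen after seeing the data. Low signal limits genes such as H2ac1, H2ac4, H3c1, H4c3 and H4c4, which were near background on most arrays of a group.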
